A study of Homo sapiens with 9 samples.

Results

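Leptin receptor and gp130 cytokine signalling was followed through 10 genes in Hec50 cells given a mimic of the microRNA miR-200c. The genes are LEPR, IL6ST, LIFR, OSMR, IL6R, JAK1, JAK2, STAT3, SOCS2 and SOCS3. All probe sets whose only gene symbol in the platform's probe table is one of these were taken, which gave 38 probe sets for 10 of the 19775 genes that have such a probe set. Each probe set is a set of short probes against a transcript, so several probe sets of 1 gene can report different transcript forms and are not replicates of each other. Whether probe sets of 1 gene share probes was not looked up, so they are not counted as independent readings either.

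The leptin receptor LEPR and gp130, the product of IL6ST, belong to the same class of cytokine receptors. gp130 is the shared signalling chain that pairs with IL6R for interleukin-6, with LIFR for leukaemia inhibitory factor and with OSMR for oncostatin M. Receptors of this class carry the kinases JAK1 and JAK2, which phosphorylate the transcription factor STAT3, and STAT3 in turn induces SOCS3, which shuts the receptor complex off. In the endometrium, leukaemia inhibitory factor and gp130 are known for their part in implantation, and leptin and interleukin-6 signalling are studied in endometrial cancer.

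Hec50 is an established human endometrial cancer line, grown in DMEM with fetal bovine serum. There were 3 groups of 3 arrays each, namely mock transfected cells, cells given a scrambled negative control RNA, and cells given the miR-200c mimic. Both RNAs were given at 60 nM for 48 h; the labels give neither a dose nor a time for the mock cells. The series set out to find genes that miR-200c regulates in an aggressive cancer. Whether the arrays of a group stem from separate cultures is not in the labels, and the p-values then cover only the array-to-array spread, which may be technical. The groups are 1 cell line transfected over a short time, and miR-200c was raised from outside.

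The mature sequences show what the mimic brings into the cell, since a microRNA finds its target RNAs mainly through its seed. They are printed 5' to 3' from RefSeq (GRCh38.p14), with the seed, bases 2 to 8, in capitals. The mature miR-200c lies at chr12:6963742-6963764 on the plus strand. The related miR-200b and miR-429 carry the same 7 bases there, AAUACUG.
miR-200c-3p: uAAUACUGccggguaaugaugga
miR-200b-3p: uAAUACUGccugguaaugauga
miR-429: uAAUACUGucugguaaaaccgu

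Total RNA was hybridised to 1-colour Affymetrix arrays. The deposited expression values are taken here as log2, with each probe set centred on its median over the 9 arrays. A value therefore says how far an array lies above or below that median and gives no level. The original level could be placed only in a class, from rounding left in the stored numbers: 16 of the 38 probe sets lay at 8 or more on the log2 scale, 19 from 4 to 8, and 3 below 4, where arrays hold little signal. Arrays of 1 group differed from each other with an SD over probe sets of 0.131 to 0.182. Precision is limited by the small number of arrays, and the median SE of a difference between groups was 0.0719.

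The mimic arrays carried the known miR-200c response. ZEB1, a repressor of epithelial genes and a direct target of miR-200c, fell in the mimic arrays relative to the scrambled control (log2 change -1.57, SE 0.06, adjusted p = 1.42e-07). CDH1, the E-cadherin gene that ZEB1 represses, was 9.57-fold higher (log2 change 3.26, adjusted p = 8.79e-08). Averaged over all probe sets of the gene in place of those of its highest level class, the log2 changes were -0.99 and 1.92. Of 12 epithelial markers expected in the labelled line, 6, among them KRT8, KRT18 and EPCAM, lay at 8 or more, while ESR1, PGR and others lay from 4 to 8. Of 18 measured leukocyte, endothelial and stromal markers, 3 lay at 8 or more, 12 from 4 to 8 and 3 below 4. The leukocyte gene LAPTM5 was lower with the mimic by a log2 change of -0.22 against the scrambled control (adjusted p = 0.00945). It was 1 of 6 measured leukocyte markers called there, beside 6.94% lower and 7.57% higher over all genes. The ACTB control probe sets compare RNA integrity and labelling between arrays, as the 3' minus the 5' value. They are centred like the others, so this value gives no 3' to 5' ratio of an array. The value was -0.18 ± 0.03 (SD, n = 3) in mock, 0.10 ± 0.04 with the scrambled control and 0.02 ± 0.08 with the mimic. The same difference for GAPDH ranged from -0.06 to 0.06 over all 9 arrays. The part of the ACTB difference in the results against mock was not tested.

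Receptor and STAT3 probe sets made up most of the calls. Between mimic and scrambled control, 13 of 38 probe sets rose, 1 fell and 24 stayed short of the threshold (limma, Benjamini-Hochberg adjusted p under 0.05 over 54613 probe sets). Over all probe sets tested, 4.52% were higher and 4.15% lower. Of the 13 that rose, 5 belong to IL6ST, 3 to IL6R, 3 to STAT3, 1 to OSMR and 1 to SOCS3; the probe set that fell belongs to LIFR. The median log2 change over the 38 was 0.05, against -0.01 over all probe sets; it averages over members of both signs. Called probe sets are commoner at high levels everywhere on the array: at 8 or more, 8 of 16 of these probe sets were called against 15.9% of all, and from 4 to 8, 6 of 19 against 6.94%.

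Against mock, 9 of the 38 were higher with the mimic and 1 was lower, with 5.07% higher and 6.98% lower over all probe sets. Without mock replicate 1 or without mimic replicate 2, 6 were called in place of 10. The scrambled control itself differed from mock in 10 of the 38, with 2 higher and 8 lower, against 1.23% and 2.84% of all probe sets. Every fit without 1 array called fewer than these 10, from 5 to 8. The count was 5 without mock replicate 2 and 6 without scrambled replicate 1 or scrambled replicate 2. The 3 comparisons share arrays: a gene that is low with the scrambled control alone is high in the first comparison and low in the third. Groups of 3 arrays did not overlap in 17 of the 38 probe sets between mimic and scrambled control, where 24.2% of all probe sets did so and 8.66% were called.

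**Figure D1:**
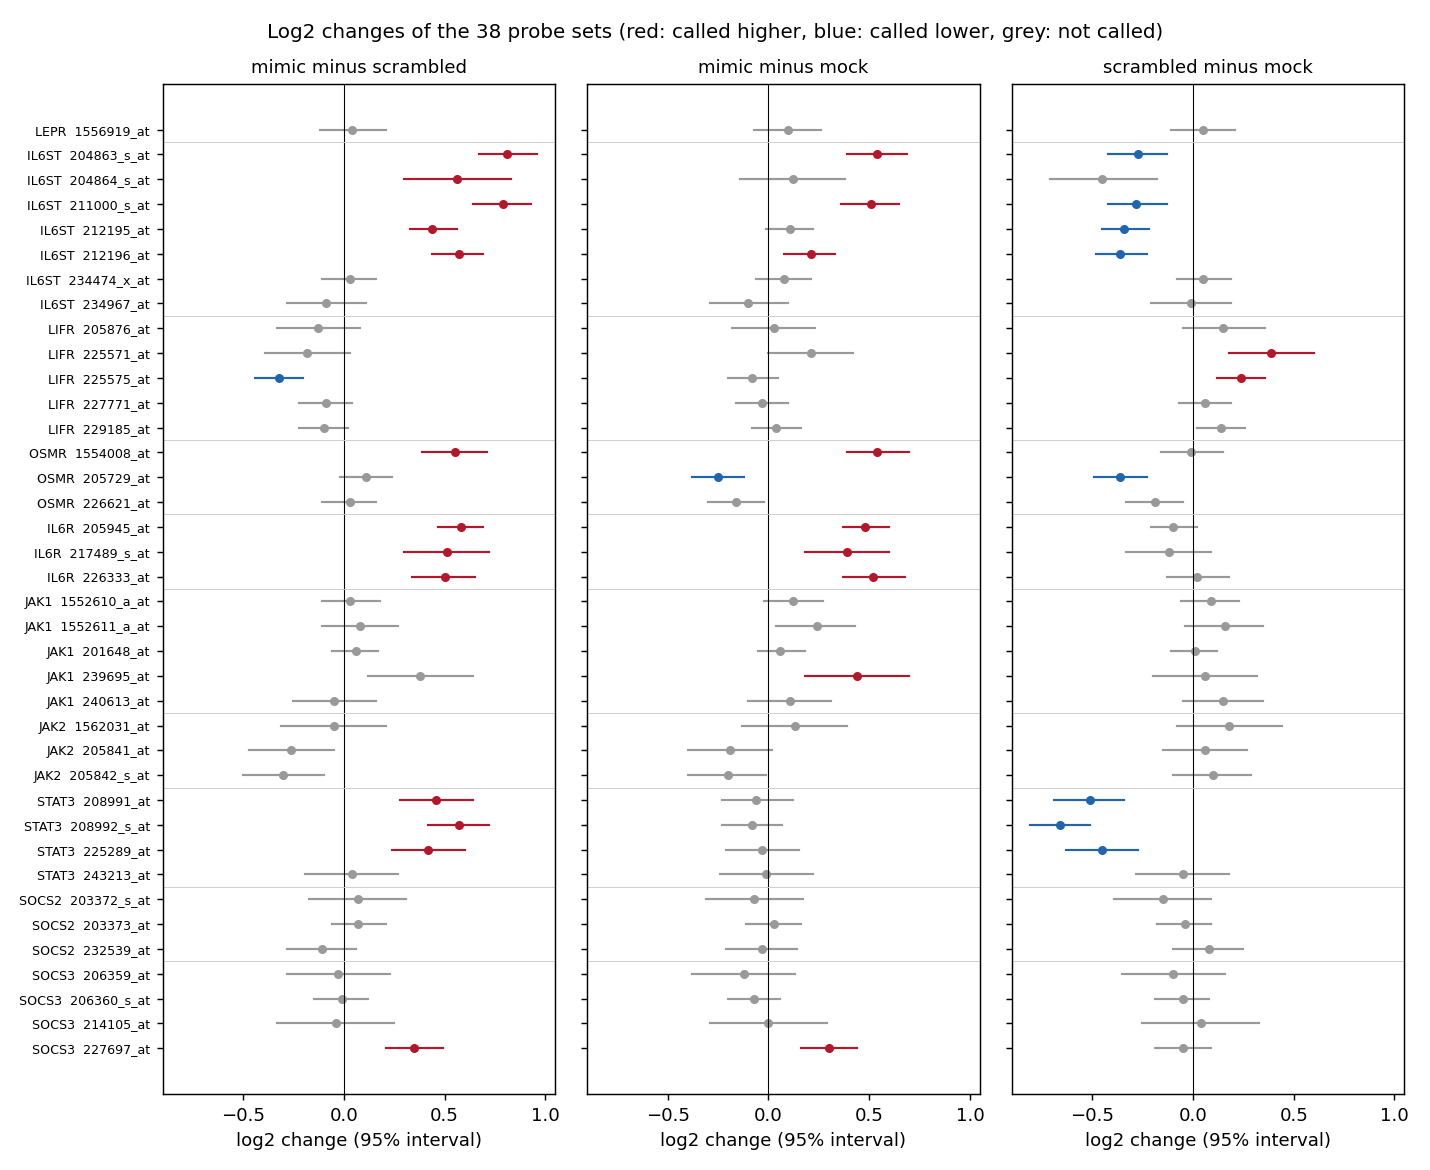
Log2 changes of the 38 probe sets (points) with 95% intervals (lines) in the 3 comparisons, on 1 shared horizontal axis; red marks probe sets called higher, blue called lower and grey not called. IL6R is red in both mimic comparisons and grey in the third, while 3 STAT3 probe sets are red against the scrambled control, grey against mock and blue between scrambled control and mock.

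IL6ST, the gene of gp130, rose with the mimic in 5 of its 7 probe sets. The 2 that did not pass, 234474_x_at and 234967_at, are the 2 whose level lay below 4. At 204863_s_at, of the highest level class, mock arrays read 0.00, -0.06 and 0.07, scrambled control arrays -0.32, -0.32 and -0.17, and mimic arrays 0.50, 0.64 and 0.49. In whole cultures, fewer cells with the RNA and less RNA per cell cannot be told apart. All 3 mimic arrays lay above the other 6, and all 3 scrambled control arrays lay below mock. The mimic was 1.76-fold higher than the scrambled control there (log2 change 0.81, SE 0.07, adjusted p = 4.43e-05) and 1.45-fold higher than mock (0.54, SE 0.07, adjusted p = 0.000557).

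A second IL6ST probe set, 211000_s_at, gave nearly the same values, with mimic arrays at 0.50, 0.53 and 0.52 and scrambled control arrays at -0.35, -0.26 and -0.20. Its log2 change was 0.79 against the scrambled control and 0.51 against mock. At 212196_at the change against the scrambled control was 0.57 and that against mock 0.21 (adjusted p = 0.0381), the second of which was lost without any 1 of the mock or mimic arrays, with adjusted p up to 0.117. At 212195_at it was 0.44 against the scrambled control and 0.11 against mock, which did not pass. At 204864_s_at it was 0.56 (adjusted p = 0.0132), lost without scrambled replicate 1 or mimic replicate 1 (adjusted p up to 0.0549), and 0.12 against mock, which did not pass.

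The 5 IL6ST probe sets thus differed among themselves in how far the mimic lay above mock. In all 5, the scrambled control arrays lay below the mock arrays without overlap, and 4 passed, with log2 changes from -0.36 to -0.27. Over all probe sets, 24.6% did not overlap between those groups. The 5 were taken by their call against the same scrambled control arrays, which favours low values there. Of the 4 that passed, 212195_at (-0.34, adjusted p = 0.0076) and 212196_at (-0.36, adjusted p = 0.00887) passed without any 1 array. The other 2, 204863_s_at and 211000_s_at, passed in 1 of 9 such fits each, that without mimic replicate 2 and that without mock replicate 1. With 1 value per gene, IL6ST was higher by 0.61 against the scrambled control and by 0.28 against mock (adjusted p = 0.00155).

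IL6R, the chain that binds interleukin-6, rose in all 3 of its probe sets in both mimic comparisons. At 205945_at the mimic arrays read 0.53, 0.47 and 0.46, the mock arrays 0.03, -0.02 and 0.00, and the scrambled control arrays -0.07, -0.14 and -0.07. Mimic and control arrays were far apart, while mock and scrambled control arrays differed by a log2 change of -0.10 (SE 0.05, adjusted p = 0.33). The mimic was 1.49-fold higher than the scrambled control (log2 change 0.58, SE 0.05, adjusted p = 6.16e-05) and 1.40-fold higher than mock (0.48, adjusted p = 0.000185). The probe set of the highest level class, 226333_at, read 0.52, 0.34 and 0.41 with the mimic and from -0.18 to 0.00 on the other 6 arrays. Its log2 changes were 0.50 and 0.52. At 217489_s_at they were 0.51 and 0.39, the second of which was lost in 5 of 9 fits that each left out 1 array, those without mock replicate 1, 2 or 3 or mimic replicate 1 or 2 (adjusted p up to 0.0892).

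OSMR, the oncostatin M receptor chain, gave probe sets that disagreed. At 1554008_at mock arrays read -0.06, -0.04 and 0.06, scrambled control arrays -0.04, 0.00 and -0.02, and mimic arrays 0.67, 0.40 and 0.52. The controls lay together and the mimic lay 1.46-fold above both (log2 change 0.55, adjusted p = 0.000768, and 0.54, adjusted p = 0.000755). At 205729_at the mock arrays stood apart instead, at 0.26, 0.24 and 0.26, above scrambled control arrays at -0.14, -0.19 and 0.00 and mimic arrays at 0.03, -0.01 and -0.01. That probe set was lower than mock with the scrambled control (log2 change -0.36, adjusted p = 0.00976) and with the mimic (-0.25, adjusted p = 0.0187, lost without any 1 mock array and without mimic replicate 2 or 3). The third, 226621_at, passed in no comparison, with log2 changes of 0.03, -0.16 and -0.19. Which transcripts of OSMR each probe set reads is not given in the files used here.

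LIFR, the leukaemia inhibitory factor receptor chain, fell with the mimic in 1 of its 5 probe sets, against the scrambled control. At 225575_at the scrambled control arrays read 0.22, 0.21 and 0.22, the mock arrays -0.08, 0.00 and 0.00, and the mimic arrays -0.15, -0.14 and -0.02. The scrambled control stood above both other groups, which overlapped each other. The mimic lay 1.25-fold below the scrambled control (log2 change -0.32, SE 0.05, adjusted p = 0.00471), and its difference from mock was -0.08 (95% interval -0.20 to 0.05). The scrambled control was higher than mock there by 0.24 (adjusted p = 0.0381) and at 225571_at by 0.39 (adjusted p = 0.0485). The first was lost without any 1 of the mock or scrambled control arrays, and the second without mock replicate 1 or 2, scrambled replicate 1 or 2, or any mimic array (adjusted p up to 0.152). With 1 value per gene, the mean of these 2, LIFR was higher with the scrambled control than in mock by 0.32 (adjusted p = 0.00962), which held without any 1 array. It fell between scrambled control and mimic by a change of -0.25 (adjusted p = 0.0151), lost without scrambled replicate 1 or 2 and when all 5 probe sets were averaged (-0.16, adjusted p = 0.0512). The other 3 LIFR probe sets, 205876_at, 227771_at and 229185_at, all of the class from 4 to 8, passed in no comparison, with changes from -0.13 to 0.15.

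**Figure D2:**
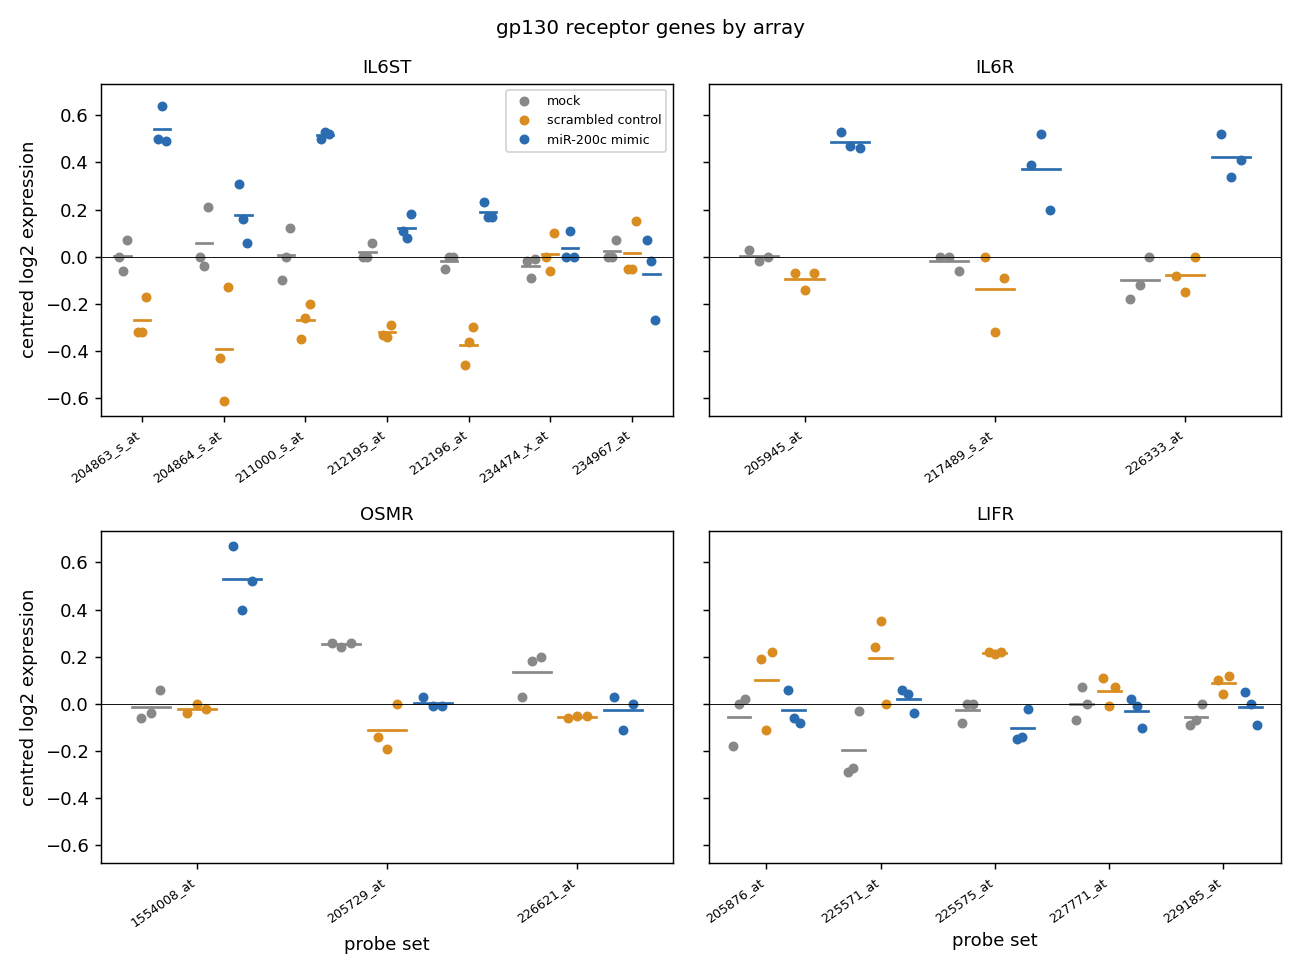
Centred log2 expression of every IL6ST, IL6R, OSMR and LIFR probe set on each of the 9 arrays (points; grey mock, orange scrambled control, blue mimic), with group means as short lines. In 5 IL6ST probe sets the scrambled control lies below mock and the mimic above the scrambled control, in IL6R mock and scrambled control lie close together below the mimic, and in OSMR only 1554008_at has the mimic above all other arrays.

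LEPR, the leptin receptor, has been described as a target of miR-200c. Its only probe set with no second gene symbol, 1556919_at (level from 4 to 8), read -0.01, -0.06 and -0.03 in mock, 0.01, 0.05 and 0.00 with the scrambled control, and -0.11, 0.19 and 0.12 with the mimic. The mimic arrays spread over both control groups. The difference was 0.04 against the scrambled control (95% interval -0.12 to 0.21, adjusted p = 0.795) and 0.10 against mock (-0.07 to 0.26, adjusted p = 0.484). It passed in none of the 9 fits without 1 array, with adjusted p down to 0.0659 against mock. Taken as the gene's value and adjusted over 19775 genes, it passed against mock in 1 of the 9, that without mimic replicate 1 (0.18, adjusted p = 0.0255). The lower limits lie at -0.12 and -0.07, so a larger fall at this probe set is outside the 95% intervals.

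The array holds 6 further probe sets that the platform's table assigns to both LEPROT and LEPR. LEPROT encodes a small membrane protein of receptor traffic and overlaps LEPR on the genome, so these probe sets name no single gene; they fall outside the rule for the 38 and were looked at after their values were seen. At 209894_at the mimic arrays read -1.05, -0.88 and -1.20, the mock arrays 0.00, 0.14 and 0.13, and the scrambled control arrays 0.16, -0.18 and 0.12. The mimic lay 2.11-fold below the scrambled control (log2 change -1.08, SE 0.10, adjusted p = 0.000103) and 2.2-fold below mock (-1.14, adjusted p = 7.27e-05), and both held without any 1 array. Both control groups overlapped (log2 change -0.06, adjusted p = 0.813).

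A further 3 of the 6 were lower with the mimic in both comparisons. Over all probe sets, 4.15% were lower against the scrambled control and 6.98% against mock. At 211354_s_at the change was -0.54 (adjusted p = 0.0293) against the scrambled control and -0.79 (adjusted p = 0.00305) against mock, at 211355_x_at it was -0.34 and -0.49, and at 211356_x_at it was -0.34 and -0.48. Their calls against mock held without any 1 array. Those against the scrambled control held in 4, 4 and 2 of 9 such fits (adjusted p up to 0.135), and each was lost without any 1 of the scrambled control arrays and without mimic replicate 2 or 3; that of 211356_x_at was also lost without mock replicate 2 or 3. The remaining probe sets, 1556997_a_at at a level below 4 and 207255_at, passed in neither comparison, with changes from -0.06 to 0.22. None of the 6 passed between scrambled control and mock, although the arrays of those groups did not overlap at 1 of them, 211356_x_at. Over all probe sets, 24.6% did not overlap between those groups.

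Of the 4 probe sets of LEPROT alone, 3 rose against the scrambled control and 2 against mock, beside 4.52% and 5.07% of all probe sets. At 227095_at the mimic arrays read 0.57, 0.65 and 0.73, against -0.14 to 0.00 on the other 6 arrays, and the log2 change was 0.72 (SE 0.06, adjusted p = 7.55e-05) against the scrambled control and 0.70 (adjusted p = 8.44e-05) against mock. At 202378_s_at it was 0.64 and 0.28, and at 202377_at 0.25 and 0.11, the last of which did not pass. The scrambled control itself lay below mock at 202378_s_at (log2 change -0.36, adjusted p = 0.032; lost without any 1 mock or scrambled control array), and LEPROT as 1 value per gene did so by -0.17 (adjusted p = 0.0464; called in 2 of 9 fits without 1 array, those without mimic replicate 1 or 2). The call of 202377_at against the scrambled control was lost without scrambled replicate 1 or 2 or mimic replicate 1 or 3. That of 202378_s_at against mock was lost without any 1 mock array, scrambled replicate 3, or mimic replicate 1 or 2. The fourth, 1556996_at, at a level below 4, passed in no comparison. The called probe sets with the symbols LEPROT and LEPR and those with the symbol LEPROT alone thus shifted in opposite directions on the same arrays, and the probe set of LEPR alone passed in neither direction.

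**Figure D3:**
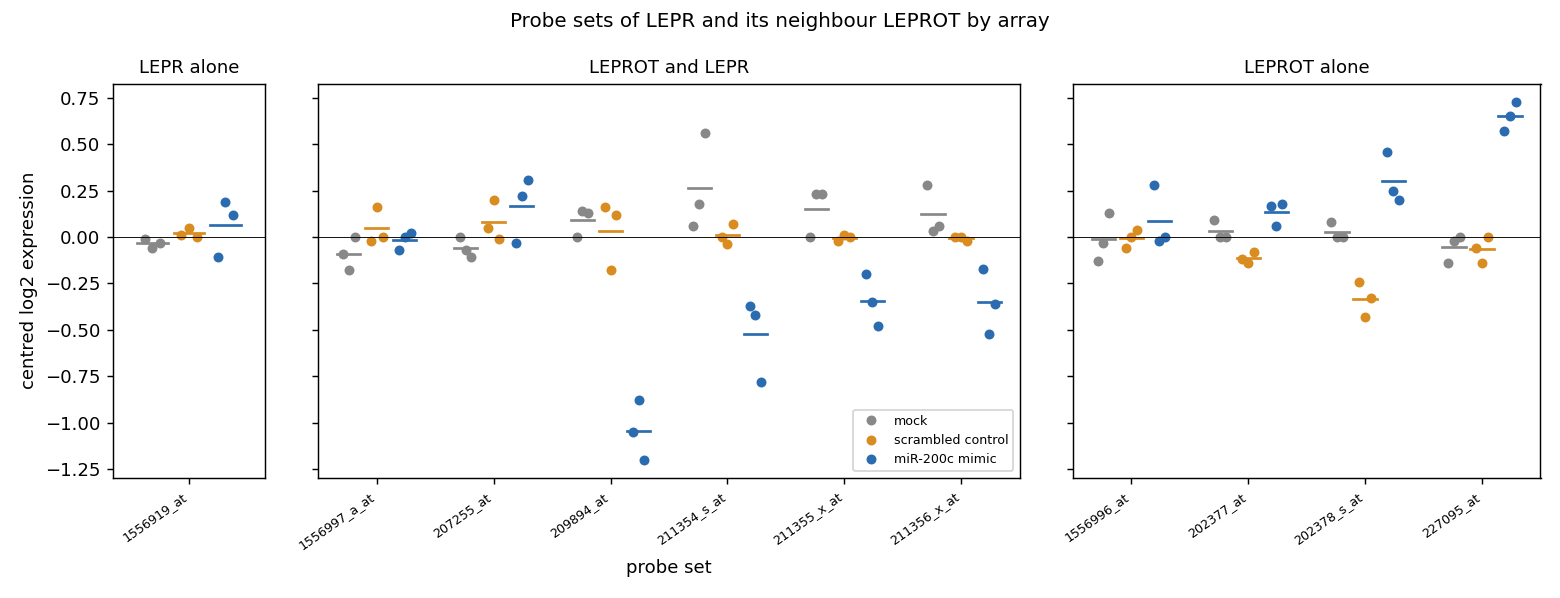
Centred log2 expression on each array of the 1 probe set of LEPR alone, the 6 with the symbols LEPROT and LEPR, and the 4 of LEPROT alone (grey mock, orange scrambled control, blue mimic; short lines are group means). At 209894_at all mimic arrays lie at -0.88 or lower, at 227095_at all lie at 0.57 or higher, and at 1556919_at they spread from -0.11 to 0.19.

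The RefSeq promoter table gives LEPROT and 1 of the LEPR transcripts the same start. The window is printed because called probe sets with the symbols LEPROT and LEPR and those of LEPROT alone shifted in opposite directions. The part of the promoter in this was not tested. The window holds the 250 bases before the shared start, chr1:65420418-65420667 on the plus strand of GRCh38.p14, and 73.6% of its bases are G or C. A second LEPR window lies at chr1:65420402-65420651.
LEPR and LEPROT: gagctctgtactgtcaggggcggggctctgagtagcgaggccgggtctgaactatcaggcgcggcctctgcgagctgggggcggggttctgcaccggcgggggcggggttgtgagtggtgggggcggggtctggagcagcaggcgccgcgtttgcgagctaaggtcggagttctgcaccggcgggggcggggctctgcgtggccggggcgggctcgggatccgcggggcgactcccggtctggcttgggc

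Of the 10 genes, 9 have promoter windows in that table, 18 in all; SOCS2 has none there. They were searched on both strands for TTCNNNGAA, a form of the site STAT proteins bind, and for CACCTG or CAGGTG, the E-box that ZEB1 is known to bind and that reads as the other form on the opposite strand. TTCNNNGAA was found in 2 of the 18, both of LIFR, at -182 and -165 from the start, where 6.56% of 34943 windows of the same length hold it. CACCTG or CAGGTG was found in 3, of JAK2 at -114 and -163 and of IL6R at -127, where 17.5% of all windows hold it. A match shows only that these letters are there. The IL6R window is printed as that of the gene whose probe sets all rose; it lies at chr1:154405093-154405342 on the plus strand, with the match in capitals.
IL6R: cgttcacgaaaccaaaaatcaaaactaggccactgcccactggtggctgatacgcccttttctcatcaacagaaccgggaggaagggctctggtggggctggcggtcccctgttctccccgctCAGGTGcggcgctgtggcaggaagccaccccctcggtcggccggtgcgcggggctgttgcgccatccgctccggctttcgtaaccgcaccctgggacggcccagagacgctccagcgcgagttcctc

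JAK1 and JAK2, the receptor-bound kinases, have 8 probe sets here. None of the 8 passed between mimic and scrambled control, where 8.66% of all probe sets were called. Against mock 1 of them passed, 239695_at of JAK1, where 12.1% of all probe sets were called. JAK1 at 201648_at, of the highest level class, ranged from -0.04 to 0.11 over all 9 arrays, and its log2 change was 0.06 against both controls (95% interval -0.06 to 0.17 against the scrambled control). JAK1 at 239695_at read 0.20, 0.31 and 0.34 with the mimic, 0.00, -0.48 and 0.02 in mock, and -0.14, 0.00 and -0.13 with the scrambled control. It was higher than mock by 0.44 (adjusted p = 0.0342), a group that holds 1 low array, and lost that call in 5 of 9 fits without 1 array (scrambled replicate 1 or 3, or any mimic array; adjusted p up to 0.106). The other 3 JAK1 probe sets, 1552610_a_at, 1552611_a_at and 240613_at, passed in no comparison.

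JAK2 passed as 1 value per gene and at none of its 3 probe sets. At 205842_s_at mimic arrays read -0.17, -0.34 and -0.12 and scrambled control arrays 0.09, 0.17 and 0.00. At 205841_at mimic arrays read -0.20, -0.17 and -0.14 and scrambled control arrays 0.00, 0.02 and 0.25. Neither group pair overlapped, and over all probe sets 24.2% did not overlap between mimic and scrambled control. The changes of -0.30 (adjusted p = 0.0647) and -0.26 (adjusted p = 0.143) did not pass. At 1562031_at, at a level below 4, the change was -0.05. Averaged to 1 value per gene over the first 2, JAK2 passed: -0.28 (SE 0.06, adjusted p = 0.007) against the scrambled control, where 6.94% of 19775 genes were lower and 7.57% higher. Against mock the change was -0.20 (adjusted p = 0.0334), where 10.2% of genes were lower and 8.32% higher, and this was lost without mock replicate 3, mimic replicate 1 or mimic replicate 2.

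STAT3, the transcription factor downstream of gp130, was low with the scrambled control in 3 of its 4 probe sets, and none passed between mimic and mock. At 208992_s_at mock arrays read 0.05, 0.06 and 0.09, scrambled control arrays -0.69, -0.48 and -0.60, and mimic arrays 0.06, -0.11 and 0.00. Mock and mimic overlapped, and the scrambled control lay below both. The mimic was 1.49-fold higher than the scrambled control (log2 change 0.57, SE 0.07, adjusted p = 0.00042), and the scrambled control was 1.58-fold lower than mock (-0.66, SE 0.07, adjusted p = 0.0015). Between mimic and mock the change was -0.08, with a 95% interval of -0.23 to 0.07.

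At 208991_at the 3 scrambled control arrays read -0.47, -0.25 and -0.57 and the other 6 from -0.02 to 0.13, and at 225289_at they read -0.21, -0.52 and -0.42 and the other 6 from -0.02 to 0.14. The log2 changes of mimic against scrambled control were 0.46 and 0.42, and those of scrambled control against mock were -0.51 and -0.45. The last was lost without mock replicate 2 or scrambled replicate 3 (adjusted p up to 0.0653). The fourth STAT3 probe set, 243213_at, passed in no comparison, with changes of 0.04, -0.01 and -0.05 although its level was 8 or more. With 1 value per gene, STAT3 was lower with the scrambled control than in mock by -0.41 (adjusted p = 0.00252), where 5.16% of genes were lower and 2.65% higher, and mimic and mock differed by -0.05 (adjusted p = 0.612). The ACTB 3' minus 5' value also differed between scrambled control and mock (0.10 ± 0.04 and -0.18 ± 0.03, SD, n = 3), and was 0.02 ± 0.08 with the mimic. Its part in the STAT3 values was not tested.

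SOCS3 and SOCS2, the feedback inhibitors, had 1 called probe set among 7. Over all probe sets, 8.66% were called between mimic and scrambled control and 12.1% between mimic and mock. SOCS3 at 227697_at read 0.22, 0.30 and 0.29 with the mimic, -0.10, -0.04 and 0.05 in mock, and -0.18, 0.00 and -0.07 with the scrambled control. It was 1.28-fold higher than the scrambled control (log2 change 0.35, SE 0.06, adjusted p = 0.00598) and 1.23-fold higher than mock (0.30, adjusted p = 0.0119, and 0.0507 without mock replicate 1). The other 3 SOCS3 probe sets, 206359_at, 206360_s_at and 214105_at, did not pass, with changes of -0.03, -0.01 and -0.04 against the scrambled control, and the last spread from -0.22 to 0.30 within the mimic arrays alone. With 1 value per gene, taken from 214105_at as the only one in the highest level class, SOCS3 did not pass in any comparison. None of the 3 SOCS2 probe sets passed. At SOCS2 203373_at, of the highest level class, the change against the scrambled control was 0.07 (95% interval -0.06 to 0.21).

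**Figure D4:**
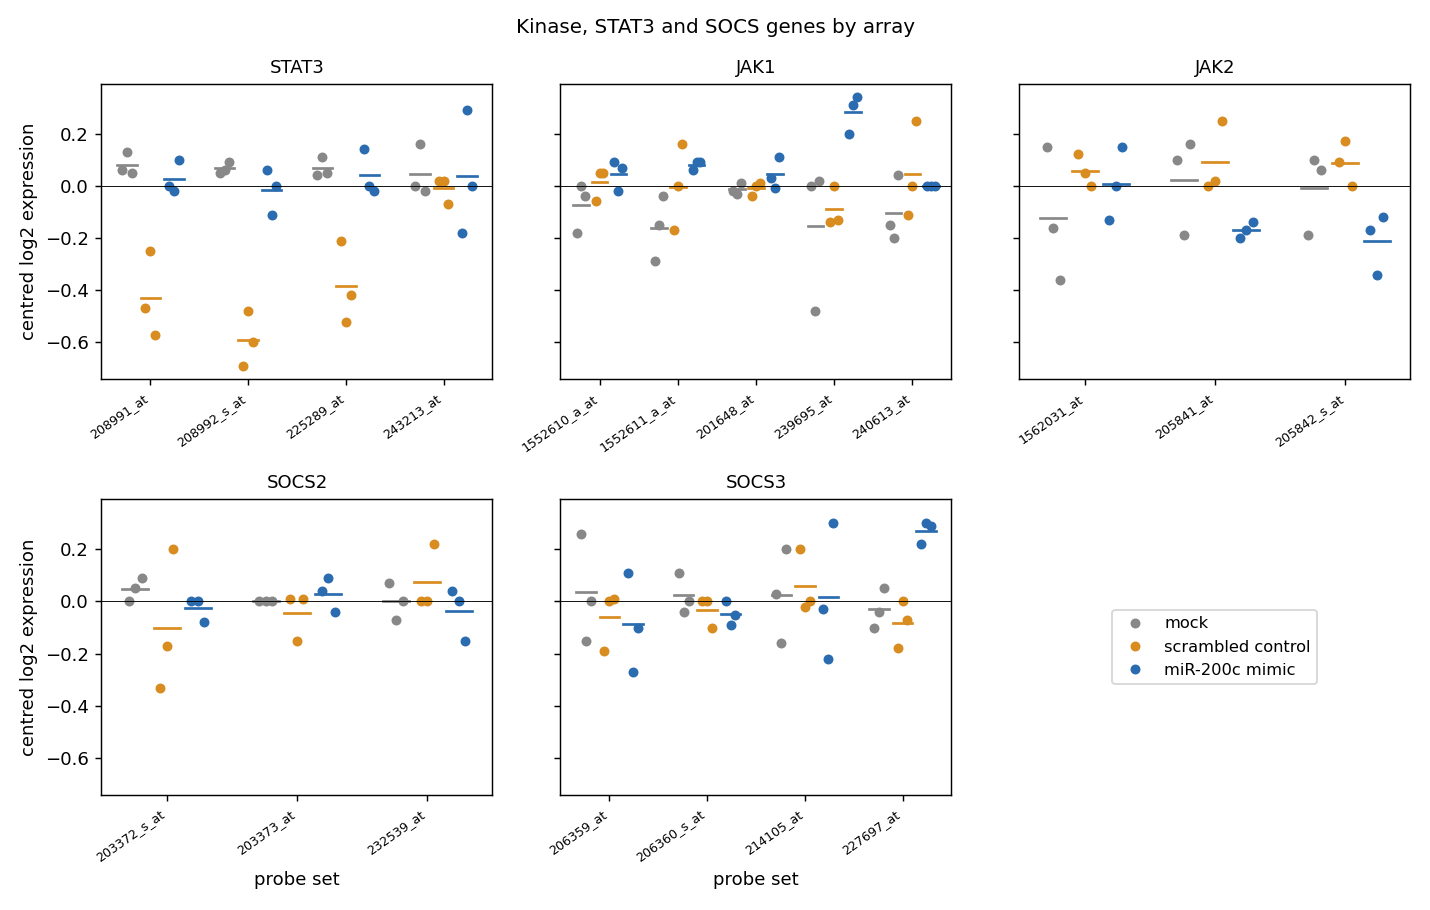
Centred log2 expression of every STAT3, JAK1, JAK2, SOCS2 and SOCS3 probe set on each array (grey mock, orange scrambled control, blue mimic; short lines are group means). Scrambled control arrays lie between -0.69 and -0.21 at 3 STAT3 probe sets, below all mock and mimic arrays, and most SOCS2 and SOCS3 probe sets overlap in all groups.

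Other genes of the pathway were read from 6 lists, with 74 of 83 genes measured, as 1 value per gene. Between mimic and scrambled control 7 rose, 7 fell and 60 did not pass, beside 7.57% and 6.94% of all genes, and their median change was 0.02. Without mimic replicate 2 the split was 11 higher and 4 lower. Against mock 8 rose and 14 fell, and 52 did not pass, beside 8.32% and 10.2% of all genes. Between scrambled control and mock 2 were higher and 7 lower, beside 2.65% and 5.16% of all genes; 5 in all were called without mock replicate 1.

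None of 9 measured ligands passed against the scrambled control, where 7.57% of all genes were higher and 6.94% lower. IL6, the interleukin-6 gene, read 0.54, 0.14 and 0.15 with the mimic and from -0.22 to 0.01 on the other arrays. It was higher by 0.31 (adjusted p = 0.0608) against the scrambled control and by 0.39 (adjusted p = 0.019) against mock, lost without mock replicate 1 or mock replicate 2. Without mimic replicate 1, the highest array, the changes were 0.18 and 0.26, and without mimic replicate 2 the first passed (adjusted p = 0.0439). IL11, a cytokine of the same family that also signals through gp130, was higher than mock by 0.18 (adjusted p = 0.0229; lost without mock replicate 1 or 3 or mimic replicate 2 or 3), and so was LEP, the leptin gene, by 0.27 (adjusted p = 0.0465; called in 1 of 9 fits without 1 array, that without mimic replicate 2). Among the other 6 receptor and receptor traffic genes, LEPROT rose by 0.54 and 0.36 in both mimic comparisons. CNTFR, the ciliary neurotrophic factor receptor, was higher with the scrambled control than in mock by 0.24 (lost without mock replicate 1 or 3 or scrambled replicate 1 or 3). IL27RA, a receptor chain for interleukin-27, was lower with the mimic than in mock by -0.29 (lost without mock replicate 1).

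Among inhibitors and phosphatases, 2 of 14 were lower against the scrambled control and none was higher, beside 6.94% and 7.57% of all genes. PTPN11 encodes SHP2, a phosphatase that binds the activated gp130 chain; it read -0.42, -0.39 and -0.44 with the mimic, 0.09, 0.08 and 0.08 with the scrambled control and -0.03, 0.03 and 0.05 in mock. Mimic arrays lay far below all others. The log2 change was -0.50 (SE 0.04, adjusted p = 2.37e-05) against the scrambled control and -0.43 (adjusted p = 5.64e-05) against mock, and both held without any 1 array. SOCS7 was lower by -0.26 (adjusted p = 0.014; lost without scrambled replicate 1 or mimic replicate 2). Against mock, PIAS3, an inhibitor of STAT3, was lower by -0.35, and SOCS6 was higher by 0.21; the first was lost without mock replicate 1 or mimic replicate 2 or 3, and the second without mock replicate 1 or 2 or any mimic array.

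Of 6 other kinases and STATs measured, none passed between mimic and scrambled control, where 7.57% of all genes were higher and 6.94% lower. TYK2, a kinase of the JAK family, was lower with the mimic than in mock by -0.28 (adjusted p = 0.00171), and STAT5A was higher with the scrambled control than in mock by 0.29 (adjusted p = 0.0102). Of 7 adaptors, IRS2, which couples insulin and leptin receptors to further kinases, was higher with the mimic by 0.37 (adjusted p = 0.00258), and SHC1 was lower by -0.22 (adjusted p = 0.00985). SHC1 read 0.20, 0.22 and 0.22 in mock, -0.01, 0.03 and -0.03 with the scrambled control and -0.15, -0.30 and -0.23 with the mimic, so that the 3 groups did not overlap, and its change between scrambled control and mock was -0.22 (adjusted p = 0.0225; lost without any mock array or scrambled replicate 1 or 3).

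Of 32 measured genes known to be induced by STAT3, 5 rose between scrambled control and mimic, 4 fell and 23 did not pass, beside 7.57% and 6.94% of all genes. Among these 9, the calls of MCL1 (0.26), HIF1A (-0.15), SERPINA3 (-0.25) and MYC (-0.22) were kept in 1, 2, 4 and 5 of 9 fits without 1 array. All 4 lost theirs without mimic replicate 3, for example, and the other 5 genes kept theirs in all 9 fits. KLF4, an epithelial transcription factor, was higher by 0.70 (SE 0.08, adjusted p = 0.000166), and by 0.51 (adjusted p = 0.00127) against mock. JUNB was higher by 0.30, CEBPB by 0.25 and BCL2L1 by 0.48 (adjusted p = 0.0103). BCL2L1 did not pass between mimic and mock (0.17) or between scrambled control and mock (-0.30, adjusted p = 0.106). TNFRSF1A, a receptor for tumour necrosis factor, was lower by -0.38 (adjusted p = 0.00519) and by -0.59 against mock. Between scrambled control and mock none of the 32 was higher and 5 were lower, beside 2.65% and 5.16% of all genes. The 5 were SBNO2 (-0.41), FOSL1 (-0.34), CEBPD (-0.31), KLF6 (-0.30) and CEBPB (-0.29). CEBPB was like STAT3 in this: its mimic arrays read 0.00, 0.05 and 0.00, its mock arrays 0.03, 0.03 and 0.13 and its scrambled control arrays -0.18, -0.23 and -0.28. CEBPD, FOSL1, SBNO2 and KLF6 were not: all stayed lower than mock with the mimic, by -0.27, -0.28, -0.38 and -0.28. Between scrambled control and mock, the call of KLF6 was lost without mock replicate 1 or scrambled replicate 2. The list's median change was -0.10 between scrambled control and mock and 0.04 between mimic and scrambled control, against 0.01 and -0.01 over all probe sets. The list holds 1 value per gene from its highest level class and the other medians hold probe sets of all levels, so they are not on the same footing.

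**Figure D5:**
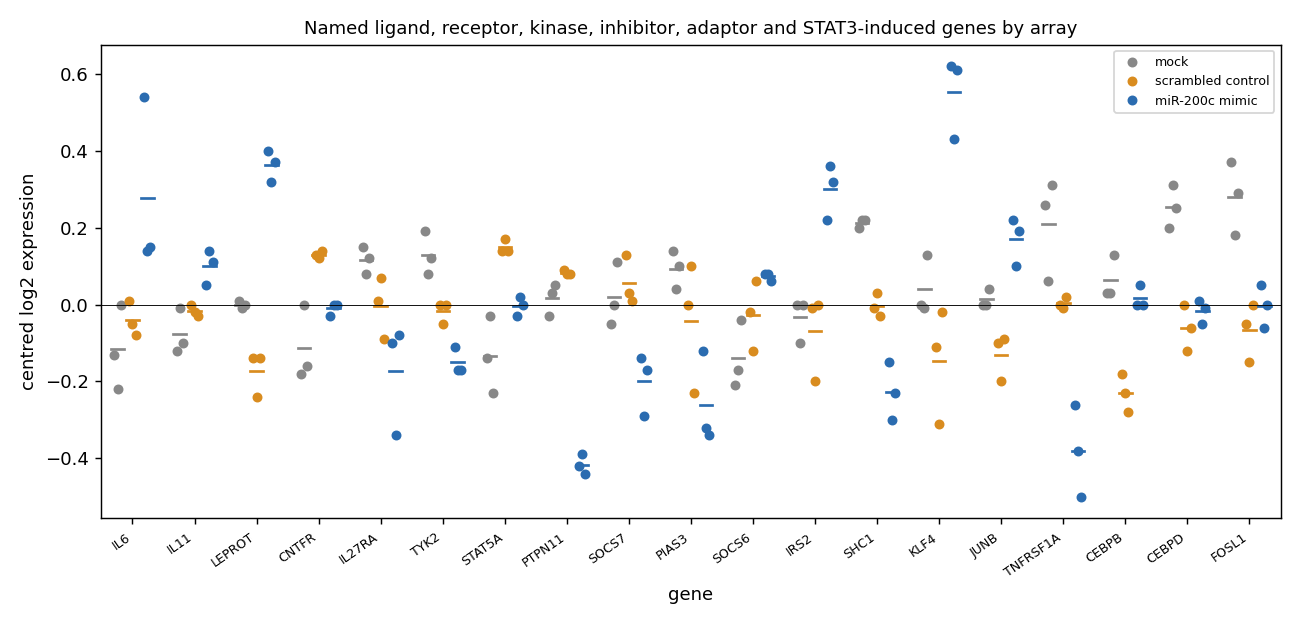
Centred log2 expression, 1 value per gene, of the 19 named pathway genes on each array (grey mock, orange scrambled control, blue mimic; short lines are group means), ordered as ligands, receptors, kinases and STATs, inhibitors, adaptors and STAT3-induced genes. PTPN11 and KLF4 have all mimic arrays apart from the other 6, CEBPB has the scrambled control apart, and CEBPD and FOSL1 have mock apart.

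The genes most like LEPR 1556919_at over the 9 arrays, among 32098 probe sets searched, were ZFP92 (Pearson r = 0.97), LINC02431 (0.967) and IGK (0.967). Those most like IL6ST 204863_s_at, among 32092, were ELOVL7 (r = 0.985), GPR137B (0.985) and TFPI2 (0.984), with log2 changes of mimic against scrambled control of 1.55, 0.61 and 1.02. These correlations describe 9 arrays in 3 groups and were selected as the highest of many.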

How the data were processed

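Total RNA of 9 Hec50 samples was measured on 1-colour Affymetrix arrays, per the labels. The deposited values were taken as log2 from their size and the platform's usual output. The summary and normalization of the probes, and the log base, are not stated in the labels or headers. In 100.0% of 54675 probe sets the deposited median over the arrays was 0, and 48.91% held more than 1 exact 0, which can lower the spread. After leaving out 62 control probe sets, 54613 were fitted with limma 3.58.1 in R 4.3.3 (all 9 arrays, group means, eBayes), with Benjamini-Hochberg adjustment over all of them and calls at adjusted p under 0.05. Gene values are the mean of a gene's single-symbol probe sets in its highest level class (41091 probe sets have 1 symbol, 1801 several, 11721 none; the platform's symbols are RefSeq's).

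Tested on simulated data for the mimic and scrambled control arrays (54613 probe sets), the fit recovered 10% of probe sets given log2 changes of 0.25, 89.3% at 0.5 and 100% at 1. Only 200 probe sets were changed in each simulation, a smaller share than the 8.66% called here, so recovery of small changes may differ on these arrays. The labels do not say whether replicate numbers pair arrays, and no such pairing was seen. Correlations of same-numbered arrays' deviations ran from -0.235 to 0.154, and those of differently numbered arrays of 2 groups from -0.216 to 0.363. The members and lists were chosen with earlier results of these data known. All members are named, and of each pathway list up to 4 genes called against the scrambled control and 2 called in another comparison, by smallest p. Other genes were added after their values were seen (LEP, BCL2L1, MCL1, HIF1A, SERPINA3, MYC, SBNO2, KLF6, LAPTM5, the markers and the probe sets that carry LEPROT). Alternatives left out each array, used a replicate block, quantile normalization, only the 2 groups compared, a filter on low values, robust eBayes, and the mean of all probe sets.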

Additional observations from a re-analysis of the deposited data

Results flagged for a closer look

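Probe sets assigned to both LEPROT and LEPR lie outside the 38 and showed differences from both control groups. With the mimic, 209894_at had a log2 change of -1.08 against the scrambled control and -1.14 against mock. The changes were -0.54 and -0.79 at 211354_s_at, -0.34 and -0.49 at 211355_x_at, and -0.34 and -0.48 at 211356_x_at. Between scrambled control and mock none of the 4 passed.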

How the results depend on the processing

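Counts of called probe sets moved with single arrays: leaving out 1 array in turn gave 13 to 15 called between mimic and scrambled control, 6 to 10 against mock and 5 to 8 between scrambled control and mock, and 10 to 15, 15 to 21 and 5 to 10 pathway genes. With the replicate block, 14, 8 and 7 probe sets and 12, 20 and 8 pathway genes were called. No pairing of arrays by replicate number was seen. With quantile normalization 14, 8 and 11 probe sets passed. For the 4 called probe sets of LEPROT and LEPR, quantile normalization left 1 called between mimic and scrambled control, and the replicate block left 2.

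The mean of all probe sets of a gene turned some signs, since it mixes probe sets that differ: for IL6ST 234967_at it gave 0.44 between mimic and scrambled control and 0.21 against mock, for IL6ST 234474_x_at -0.24 between scrambled control and mock, and for OSMR 205729_at 0.04 against mock. Of the values for single probe sets and genes under all alternatives, 3639 stayed on their side of the threshold, of which 74 values that passed in neither fit changed sign, 233 lost a call, 39 gained one, and 4 changed sign where the value passed in at least 1 of the fits compared.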
